A study of Homo sapiens with 30 samples.

Results

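Matrix metalloproteinases, the urokinase system and the tissue inhibitors of metalloproteinases were examined in 5 breast cancer cell lines kept with BMP7 or with vehicle. The 9 genes were taken by name, as the collagenase gene MMP1, the gelatinase genes MMP2 and MMP9, the membrane-type protease gene MMP14, the inhibitor genes TIMP1, TIMP2 and TIMP3, the urokinase gene PLAU and the urokinase receptor gene PLAUR. They were read by 10 of the 41000 probes on the arrays, and TIMP2 was the single gene with more than 1 probe. On the hg18 build, the probes the results turn on lie at chr11:102165907-102165966 for MMP1, chr14:22385631-22385690 for MMP14, chrX:47329610-47329669 for TIMP1, chr17:74363249-74363308 for TIMP2, chr22:31588540-31588599 for TIMP3, chr10:75347056-75347115 for PLAU and chr19:48861338-48861397 for PLAUR. The lines were HCC1954, MDA-MB-231, MDA-MB-361, T-47D and ZR-75-30, each kept with recombinant human BMP7 or with vehicle over a course of 6 times (0.5, 1, 3, 6, 12 and 24 h). Each of the 30 two-colour arrays set the BMP7-treated cells (Cy5) against the vehicle-treated cells (Cy3) of 1 line and time point, with the cells of 3 cultures pooled and no dye swap. A constant dye effect of a probe therefore cannot be told apart from a constant BMP7 effect. The 6 vehicle samples of a line are separate cultures of different duration, and tests between lines rest on the spread among them. Per the study's methods, MDA-MB-231 and T-47D were kept at serum concentrations other than the recommended ones, so that serum and line cannot be told apart for them.

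Metalloproteinases cleave collagens and other matrix proteins, and MMP14 sits in the cell membrane, where with TIMP2 it takes part in activating pro-MMP2. The TIMPs bind and block the active enzymes. Urokinase, bound to its receptor on the cell surface, converts plasminogen to plasmin, a protease that degrades matrix and activates other proteases. These genes are widely studied in breast cancer invasion, and an mRNA level does not show the activity of the secreted enzyme.

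Markers of the lines were read first. ERBB2 had mean vehicle levels of 6.89 in HCC1954, 7.14 in MDA-MB-361 and 6.40 in ZR-75-30, on a log2 scale on which the 75th percentile of an array is 0, against 1.68 in MDA-MB-231. VIM, the mesenchymal filament gene, was at 6.65 in MDA-MB-231 and at 4.21 in HCC1954, and ESR1 was not well above background in any MDA-MB-231 sample. The other mesenchymal-like markers read, CDH2 and ZEB1, were not well above background in any HCC1954 sample. In MDA-MB-231 they were well above it in 6 and 5 of 6 samples. CDH2 was also well above it in 6 of 6 MDA-MB-361 samples, at -3.69 against -3.21 in MDA-MB-231. The epithelial gene CDH1 was at 4.82 in HCC1954 and at -2.08 in MDA-MB-231. The other epithelial markers read were well above background in 6 of 6 MDA-MB-231 samples. There TACSTD1 was at 0.28, KRT8 at 3.22 and KRT18 at 5.35, against 4.37, 5.79 and 6.46 in HCC1954. Of the markers of other cell types, 2 of 4 for leukocytes (PTPRC and LYZ), 2 of 5 for fibroblasts (COL1A2 and DCN) and 0 of 3 for endothelium were not well above background in any vehicle sample, while CD14 was well above it in 30 of 30, CD3E in 29, COL1A1 in 23 and VWF in 20. The summed level per sample, on the same log2 scale, ran from -3.81 to -0.27 for leukocyte, from -4.50 to -0.79 for fibroblast and from -5.79 to -0.17 for endothelial markers. The endothelial sum ran from -1.60 to -0.17 in HCC1954 and reached -2.35 at most in the other lines. PECAM1 was well above background in 6 of 6 HCC1954 samples and CDH5 in 5. The part of these markers in the results was not tested. The share of probes with both channels well above background ran from 54.6% to 69.1% per array. The T-47D arrays at 3 h and 24 h had the lowest shares, 54.6% and 57.8%. The MDA-MB-231 array at 6 h had 6.32% of its spots marked as outliers, where other arrays had up to 1.21%. There were 13 slides and 2 scan batches, with 6 arrays in the second, and the ZR-75-30 array at 6 h stood apart with 8.52% of its measured probes changed at least 2-fold, where other arrays had up to 2.68%.

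Promoters of 5 of the 9 genes (MMP14, TIMP1, TIMP3, PLAU and PLAUR) were found in the RefSeq table of the GRCh38.p14 build. PLAUR and TIMP3 are shown as a urokinase system gene and an inhibitor gene that were well above background in every vehicle sample of some lines and in none of at least 1 other line. The 250 bases before the gene start of PLAUR (chr19:43670170-43670419, minus strand) and of TIMP3 (chr22:32801455-32801704, plus strand) are given from 5′ to 3′, with capitals marking TGANTCA, the letters of the AP-1 motif, in PLAUR and CCGCCC or its complement GGGCGG, the letters of the GC box, in TIMP3.
PLAUR: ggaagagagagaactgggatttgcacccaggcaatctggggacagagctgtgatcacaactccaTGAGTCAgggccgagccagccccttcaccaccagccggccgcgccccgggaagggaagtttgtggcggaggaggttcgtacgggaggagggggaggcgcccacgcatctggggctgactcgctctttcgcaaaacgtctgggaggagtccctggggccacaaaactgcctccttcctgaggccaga
TIMP3: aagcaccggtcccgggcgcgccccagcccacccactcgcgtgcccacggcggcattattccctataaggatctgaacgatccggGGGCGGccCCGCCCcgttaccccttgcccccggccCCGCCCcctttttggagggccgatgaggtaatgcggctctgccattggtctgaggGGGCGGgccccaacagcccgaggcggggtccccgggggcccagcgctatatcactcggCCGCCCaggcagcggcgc
Searched on both strands, TGANTCA began 186 bases before the PLAUR start and was present in 1 of the 5 genes and in 6.57% of 35116 promoters of this length. CCGCCC was present in 4 of the 5 genes, with 5 matches in TIMP3, and in 42.6% of all promoters. TATAAA was in none of the 5 and in 10.7% of all promoters. Such matches are letters in a window and not shown to be bound.

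The vehicle levels of the 9 genes differed widely between the cell lines. In such bulk samples, fewer cells with a transcript and less RNA per cell cannot be told apart. Of 90 comparisons of a gene between a pair of lines, 61 passed the test (limma, adjusted p at most 0.05), which is 67.8%, where 42.7% of all probe and pair comparisons did. The highest and the lowest line mean of a gene lay a median of 3.83 apart on the log2 scale over the 9 genes, against 1.52 over all 41000 probes. It was 1.70 over the 26256 probes well above background in at least 15 vehicle samples. In the vehicle channel, PLAUR was called in 10 of 10 pairs, PLAU, TIMP2 and TIMP3 in 8, TIMP1 in 7, MMP1 and MMP14 in 6, MMP9 in 5 and MMP2 in 3. Of the 51 pairs in which all vehicle samples of both lines were well above background, 33 were called (64.7%). No share over all probes was taken for pairs chosen in this way. The nearest is a fit of the probes well above background in at least 15 vehicle samples, in which 146039 of 262560 comparisons were called. In that fit 48 comparisons of members were called. The members in it were MMP9, MMP14, TIMP1, TIMP2, PLAU and PLAUR, with 10 pairs each. In the reported fit, another 22 pairs set a line with all vehicle samples well above background against a line with some that were not. All 22 were called. The last 6 calls, of 17 pairs, were between lines that both had samples not well above background. They were 3 of MMP2, 2 of TIMP3 (MDA-MB-361 and T-47D, each against HCC1954) and 1 of PLAUR (T-47D against MDA-MB-361). These 6 set no order of the lines. For these pairs too, no share over all probes was taken. For MMP9, MMP14, TIMP1 and TIMP2, measured in all 30 vehicle samples, the order of the line means was the same in the BMP7 channel of the same arrays.

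**Figure D1:**
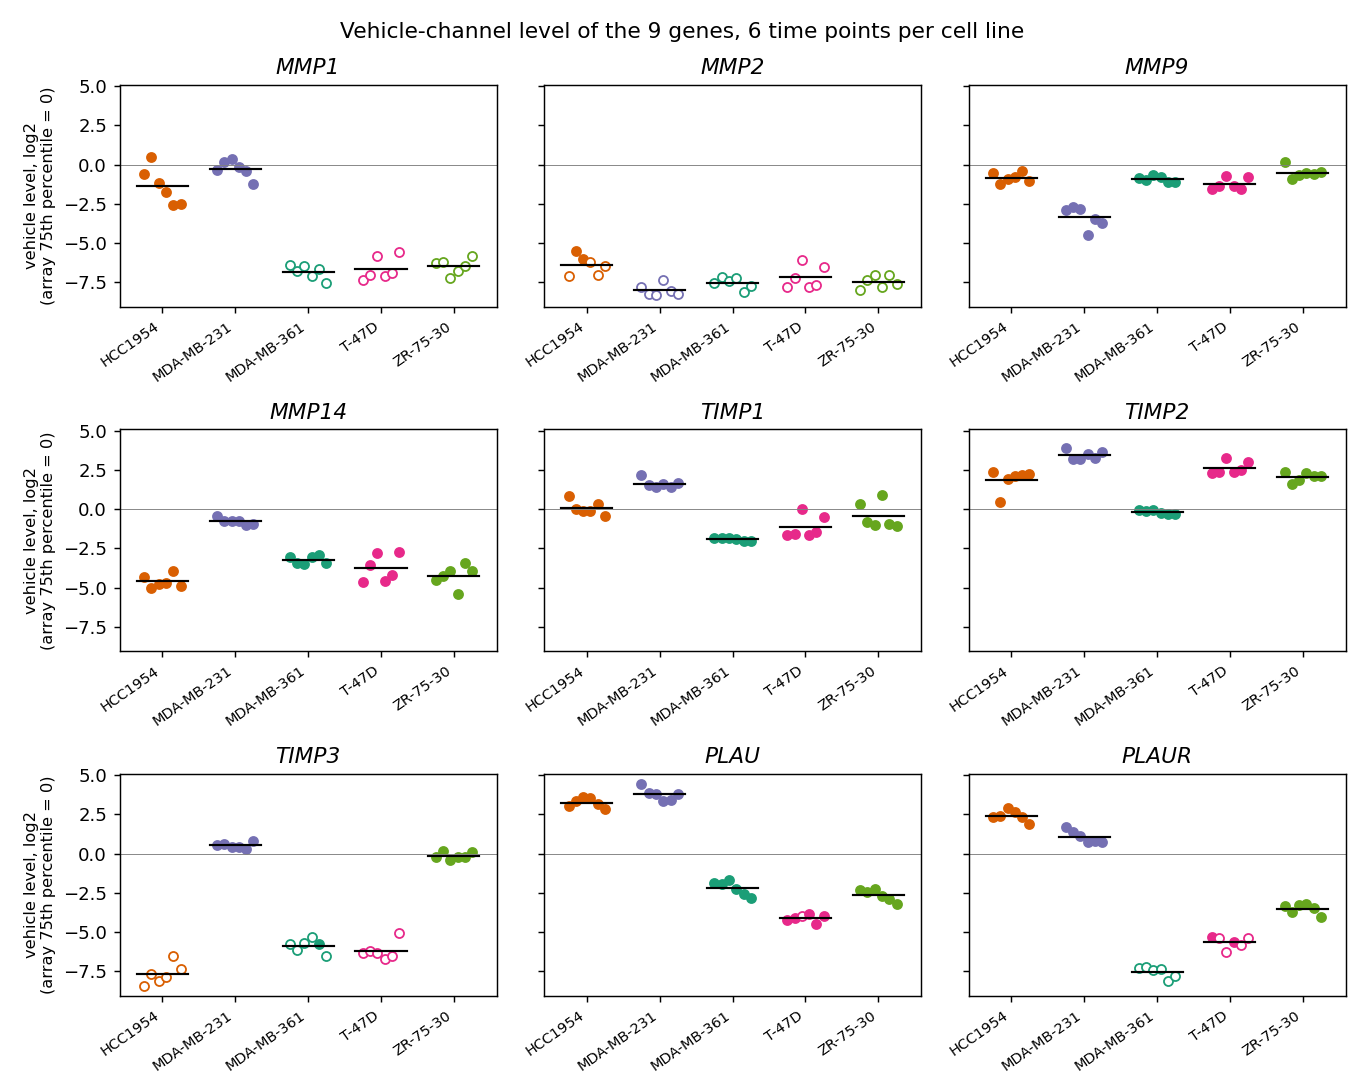
Vehicle level (log2, array 75th percentile = 0) of each gene in each cell line. Points are the 6 times in ascending order, filled where the signal was well above background and open where it was not, and bars are the line means. MMP1, PLAU and PLAUR are high in HCC1954 and MDA-MB-231, TIMP3 is high in MDA-MB-231 and ZR-75-30, and MMP2 is filled in 2 samples.

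PLAU and PLAUR, the enzyme and the receptor of the urokinase system, were highest in HCC1954 and MDA-MB-231. The PLAU vehicle level ran from 3.36 to 4.43 in MDA-MB-231 (median 3.79) and from 2.82 to 3.63 in HCC1954 (median 3.24). These ranges overlapped, and the difference of 0.55 ± 0.24 (SE, log2) between these lines did not pass the test (adjusted p = 0.0635). PLAU lay from -2.81 to -1.70 in MDA-MB-361 and from -3.18 to -2.25 in ZR-75-30, which did not differ beyond their spread (adjusted p = 0.219), and from -4.49 to -3.83 in T-47D, where 5 of 6 samples were well above background. T-47D was below every other line (PLAU, limma). The PLAU mean was 234.7-fold higher in MDA-MB-231 than in T-47D.

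PLAUR did not overlap between HCC1954, MDA-MB-231 and ZR-75-30, and these lay above both other lines. It ran from 1.90 to 2.90 in HCC1954 (median 2.38), from 0.76 to 1.69 in MDA-MB-231 (median 0.95) and from -4.05 to -3.19 in ZR-75-30 (median -3.43). In T-47D 2 of 6 samples were well above background and in MDA-MB-361 none, and the call between these lines was lost with normexp and quantile normalization (adjusted p = 0.0692). After Aquantile scaling of the 2 channels, PLAUR was at least 261.8-fold higher in HCC1954 and at least 106.7-fold higher in MDA-MB-231 than in MDA-MB-361. These bounds were set by the lowest signal well above background on each array and are open to dye bias. They apply to that scaling. The smallest fitted PLAUR difference from MDA-MB-361 under an alternative was 6.08 (log2) for HCC1954 and 4.81 for MDA-MB-231, each below its bound. The difference between HCC1954 and MDA-MB-231 was 1.34 ± 0.23 (SE, log2, adjusted p = 2.20e-05). Over the 30 arrays, the vehicle levels of PLAU and PLAUR correlated at r = 0.90 and those of PLAU and MMP1 at r = 0.95, a description of samples that share cell lines and slides.

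MMP1, whose product cleaves fibrillar collagen, was measured in the same lines. Its vehicle level ran from -1.22 to 0.34 in MDA-MB-231 (median -0.25) and from -2.59 to 0.47 in HCC1954 (median -1.47). The ranges overlapped, and the difference of 1.12 ± 0.47 (SE, log2) was not called (adjusted p = 0.0548). In MDA-MB-361, T-47D and ZR-75-30 no vehicle sample was well above background for MMP1. MDA-MB-231 was at least 42.7-fold above MDA-MB-361, at least 35.8-fold above T-47D and at least 39.2-fold above ZR-75-30, and HCC1954 at least 16.7-fold above each of the 3 (adjusted p at most 2.36e-10). These bounds also apply to the Aquantile scaling. Under the alternatives, the MMP1 difference from ZR-75-30 fell to 3.36 (log2) for MDA-MB-231 and to 2.44 for HCC1954, each below its bound.

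The gelatinases gave different pictures. MMP2 was well above background in 2 of 30 vehicle samples, both of HCC1954 (1 h and 3 h), so that its levels elsewhere are not measured and its 3 called pairs have no usable fold. MMP9 was well above background in all 30 vehicle samples. The MMP9 vehicle level was lowest in MDA-MB-231, from -4.49 to -2.72 (median -3.18), and did not overlap any other line. In the other lines, MMP9 ran from -0.91 to 0.14 in ZR-75-30, -1.24 to -0.43 in HCC1954, -1.11 to -0.65 in MDA-MB-361 and -1.57 to -0.73 in T-47D. Among these 4, the call was between ZR-75-30 and T-47D (0.75 ± 0.29, SE, log2, adjusted p = 0.0337), and it was lost without 30 min, 12 h or 24 h. MDA-MB-231 was 2.48 ± 0.30 (SE) below MDA-MB-361 for MMP9, adjusted p = 5.14e-08.

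MMP14 was highest in MDA-MB-231, the line in which MMP9 was lowest. Its vehicle level ran from -1.02 to -0.46 there (median -0.75), above every sample of the other lines. The next line, MDA-MB-361, ran from -3.49 to -2.91, followed by T-47D from -4.64 to -2.71, ZR-75-30 from -5.43 to -3.40 and HCC1954 from -5.02 to -3.91. MDA-MB-231 exceeded MDA-MB-361 by 2.55 ± 0.39 (SE, log2, adjusted p = 3.25e-06). Neighbours below it did not differ beyond their spread for MMP14: MDA-MB-361 and T-47D (adjusted p = 0.369), T-47D and ZR-75-30 (0.188), and ZR-75-30 and HCC1954 (0.597). MDA-MB-361 was above HCC1954 by 1.36 ± 0.40 (SE, log2, adjusted p = 0.00670) and above ZR-75-30 by 1.09 ± 0.39 (adjusted p = 0.0252), and the latter MMP14 call was lost under 5 of 18 alternatives, among them without 30 min (0.0681), without 6 h (0.105) and in the first scan batch alone (0.124).

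Of the inhibitors, TIMP1 and TIMP2 were well above background in all 30 vehicle samples and TIMP3 in 13. TIMP1 was highest in MDA-MB-231, from 1.38 to 2.18 (median 1.58), and did not overlap another line. HCC1954 ran from -0.46 to 0.83, ZR-75-30 from -1.07 to 0.90, T-47D from -1.67 to -0.02 and MDA-MB-361 from -2.05 to -1.84. HCC1954 and ZR-75-30 (adjusted p = 0.189) and ZR-75-30 and T-47D (0.127) overlapped and were not called for TIMP1. T-47D and MDA-MB-361 did not overlap, although their difference was not called (adjusted p = 0.0556).

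The scan batch moved with the TIMP1 level. In ZR-75-30 the 2 samples of the second batch had TIMP1 levels of 0.32 and 0.90, and the 4 of the first batch reached -0.84 at most. In T-47D the second-batch sample (3 h) was at -0.02 and the highest first-batch sample at -0.52, and in HCC1954 the second-batch sample (30 min) was at 0.83 and the highest first-batch sample at 0.30. In MDA-MB-231 the second batch held 2.18 and 1.60, against up to 1.63 in the first. All 4 lines had a higher TIMP1 mean in the second batch, by 0.40 to 1.58, and so did TIMP2, by 0.39 to 0.76. The part of the batch in these levels was not tested.

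**Figure D2:**
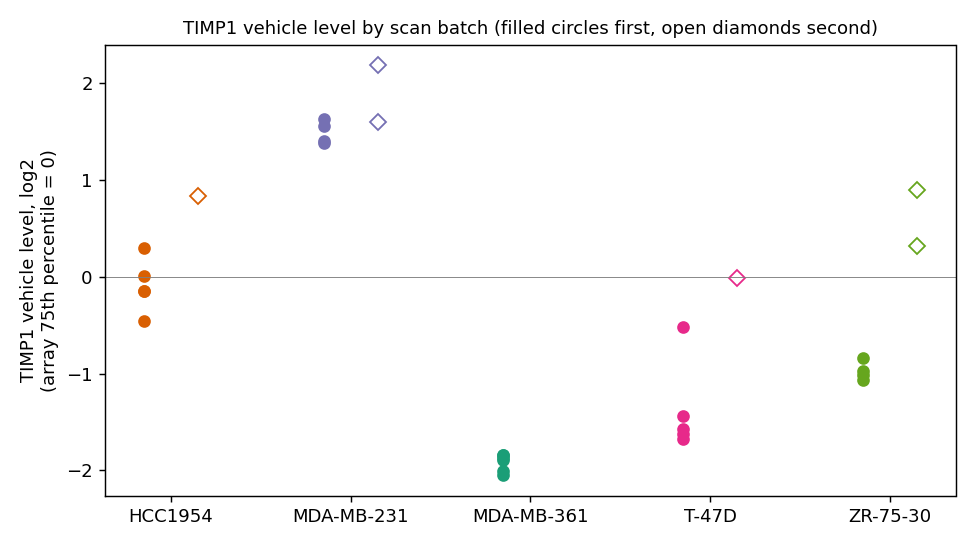
TIMP1 vehicle level (log2, array 75th percentile = 0) by cell line, with first-batch samples as filled circles and second-batch samples as open diamonds. The ZR-75-30 diamonds, at 0.32 and 0.90, lie above its circles, and MDA-MB-361 has no sample in the second batch.

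TIMP2 had its highest mean in MDA-MB-231 and its lowest in MDA-MB-361. Its vehicle level ran from 3.17 to 3.89 in MDA-MB-231 (median 3.38) and from -0.33 to -0.03 in MDA-MB-361 (median -0.19), and no MDA-MB-361 sample reached another line. T-47D ran from 2.30 to 3.27, ZR-75-30 from 1.57 to 2.37 and HCC1954 from 0.46 to 2.36, of which the HCC1954 sample at 1 h (0.46) lay far below its 5 others. TIMP2 was 3.60 ± 0.29 (SE, log2) higher in MDA-MB-231 than in MDA-MB-361 (adjusted p = 1.55e-11). Above T-47D, whose range it overlapped, MDA-MB-231 lay by 0.74 ± 0.28 (adjusted p = 0.0332), a TIMP2 call lost under 5 of 18 alternatives, namely without 30 min (0.186), 6 h (0.0842), 12 h (0.0555) or 24 h (0.132) and without the MDA-MB-231 array at 6 h (0.0505). The call of T-47D above HCC1954 (0.73 ± 0.28, adjusted p = 0.0385) was lost under 9 of 18, among them without 30 min (0.0531), 3 h (0.0846) or 24 h (0.170). In HCC1954 and T-47D the second-batch TIMP2 sample lay above all first-batch samples. T-47D and ZR-75-30 (adjusted p = 0.0630) and ZR-75-30 and HCC1954 (0.830) did not differ beyond their spread for TIMP2. The other TIMP2 probe was not well above background on any array.

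TIMP3, a matrix-bound inhibitor, was well above background in all samples of 2 lines. It ran from 0.31 to 0.79 in MDA-MB-231 (median 0.49) and from -0.44 to 0.15 in ZR-75-30 (median -0.20), ranges that did not overlap although the difference of 0.67 ± 0.28 (SE, log2) was not called (adjusted p = 0.0529). It was well above background in 1 of 6 MDA-MB-361 samples and in none of HCC1954 or T-47D. TIMP3 was at least 82.7-fold higher in MDA-MB-231 than in HCC1954 and at least 61.2-fold higher than in T-47D, and in ZR-75-30 at least 49.1-fold and at least 36.3-fold higher than in these lines. These bounds again apply to the Aquantile scaling. Under the alternatives, the TIMP3 difference from T-47D fell to 4.18 (log2) for MDA-MB-231 and to 3.50 for ZR-75-30, each below its bound. MDA-MB-231 thus held the highest line mean of TIMP1, TIMP2, TIMP3, MMP14, PLAU and MMP1 and the lowest of MMP9.

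Genes whose vehicle level followed that of a member most closely over the 30 arrays were named by the highest Pearson r, as a description with no test. For PLAU these were AKR1B1 (r = 0.989), the tissue factor gene F3 (0.984) and the laminin gene LAMB3 (0.982). For PLAUR they were SRPX2 (0.982), LEPREL1 (0.979) and the cytokine gene LIF (0.979). For MMP9 they were HOMER2 (0.967), SLC19A1 (0.958) and TRIM11 (0.958), for TIMP1 LY96 (0.942), CD68 (0.932) and ASCC3 (0.931), and for TIMP2 ASPHD1 (0.956), RNH1 (0.953) and PINX1 (0.943). For MMP14 the closest were RAB42, UGT8 and RGS7, which were well above background in 5, 5 and 6 of the 30 vehicle samples, so that their r is mostly with unmeasured levels. LY96 was well above background in 14 and SRPX2 in 18, and the other genes named in 21 to 30.

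Against this spread between lines, the changes with BMP7 were small. With both channels well above background, which held for 194 of 270 gene and array pairs, the log2 ratio of BMP7 over vehicle had a median size of 0.17, against 0.16 over all probes. Of these 194, 2 reached 2-fold, and 0.798% of such pairs over all probes did. They were MMP1 in MDA-MB-231 at 12 h (-1.12) and MMP14 in ZR-75-30 at 6 h (1.28). The latter lies on the array that stood apart. Each is a single array without a replicate.

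**Figure D3:**
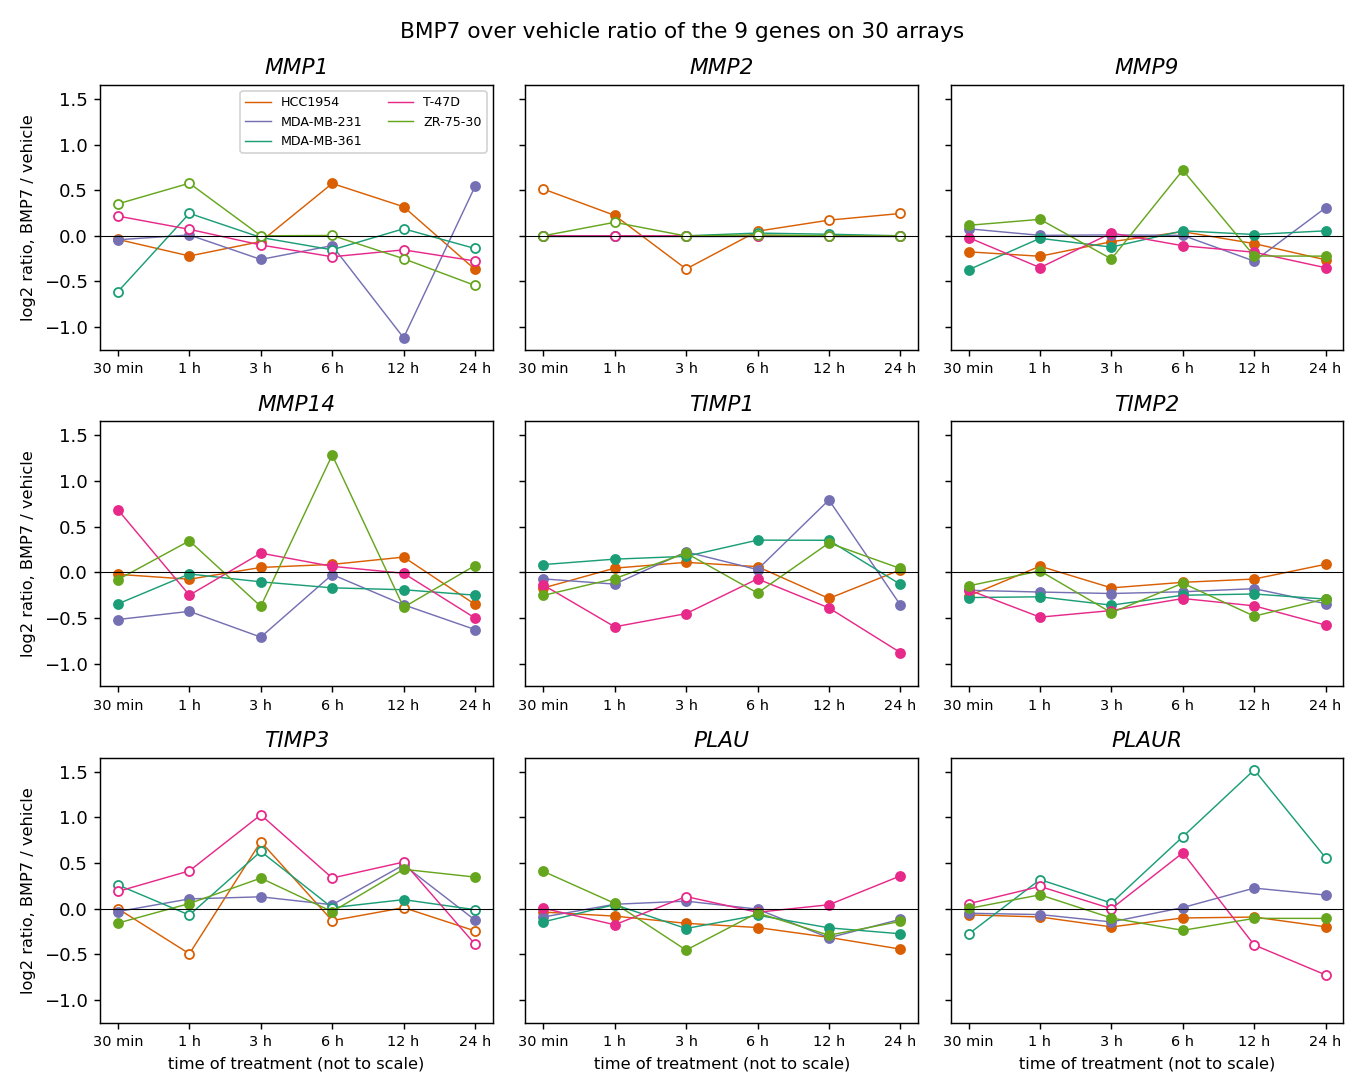
Log2 ratio of BMP7 over vehicle of the 9 genes at 6 time points in 5 cell lines, with filled points where both channels were well above background and open points otherwise. Most points lie within 0.5 of 0, TIMP2 lies below 0 on 27 of 30 arrays, and MMP1 at 12 h in MDA-MB-231 (-1.12) and MMP14 at 6 h in ZR-75-30 (1.28) stand out among the filled points.

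TIMP2 was the member with a ratio below 0 on the most arrays. It was below 0 on 27 of 30 arrays, from -0.58 to 0.09 (median -0.24). In MDA-MB-231 it ran from -0.34 to -0.18 and was -0.24 ± 0.05 (SE, adjusted p = 0.0107) on average, in MDA-MB-361 from -0.36 to -0.24 (mean -0.28 ± 0.06, adjusted p = 0.00390), in T-47D from -0.58 to -0.19 (mean -0.39 ± 0.06, adjusted p = 0.000135) and in ZR-75-30 from -0.48 to 0.01 (mean -0.25 ± 0.05, adjusted p = 0.00789). In HCC1954 it ran from -0.26 to 0.09 (mean -0.08 ± 0.06, adjusted p = 0.469). The lowering was present at 30 min, when the 5 lines lay between -0.28 and -0.15, and a constant dye effect of the probe cannot be told apart from it. Of 45 tests of a gene within a line, 5 were called (11.1%), 4 of them TIMP2, where 5.44% of all such tests were called. With normexp background correction and median scaling, no TIMP2 line was called and the MDA-MB-231 mean turned to 0.27 (adjusted p = 0.486). Without 24 h, 1 call of a gene within a line was left, that of TIMP2 in T-47D. Of 19 alternatives, the TIMP2 call was lost under 4 in ZR-75-30, 2 in MDA-MB-361 and 1 in T-47D. In MDA-MB-231 it was lost under 1 and its sign turned under 1.

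Between lines, a constant dye effect of a probe cancels. The TIMP2 ratio was 0.31 ± 0.08 (SE, log2) higher in HCC1954 than in T-47D (adjusted p = 0.0469), the only call among 90 comparisons of a gene between lines, where 1.12% of all comparisons were called. It was lost under 11 of 19 alternatives, among them the authors' deposited log2 values (adjusted p = 0.0786) and leaving out 24 h (0.363).

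TIMP1 was called below 0 in T-47D, where a dye effect cannot be told apart from a lowering. Its ratio was below 0 on 6 of 6 arrays, from -0.88 to -0.07 (median -0.42), with a mean of -0.42 ± 0.11 (SE, adjusted p = 0.0287). It was no longer called in 8 of 19 alternatives, such as without the arrays at 3 h and 24 h (-0.30, adjusted p = 0.189) and without 24 h (-0.34, adjusted p = 0.153). In the other lines the TIMP1 mean ratio was between -0.04 and 0.16, and the difference from T-47D was largest for MDA-MB-361 (0.58 ± 0.16, adjusted p = 0.0753), which did not pass the test.

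**Figure D4:**
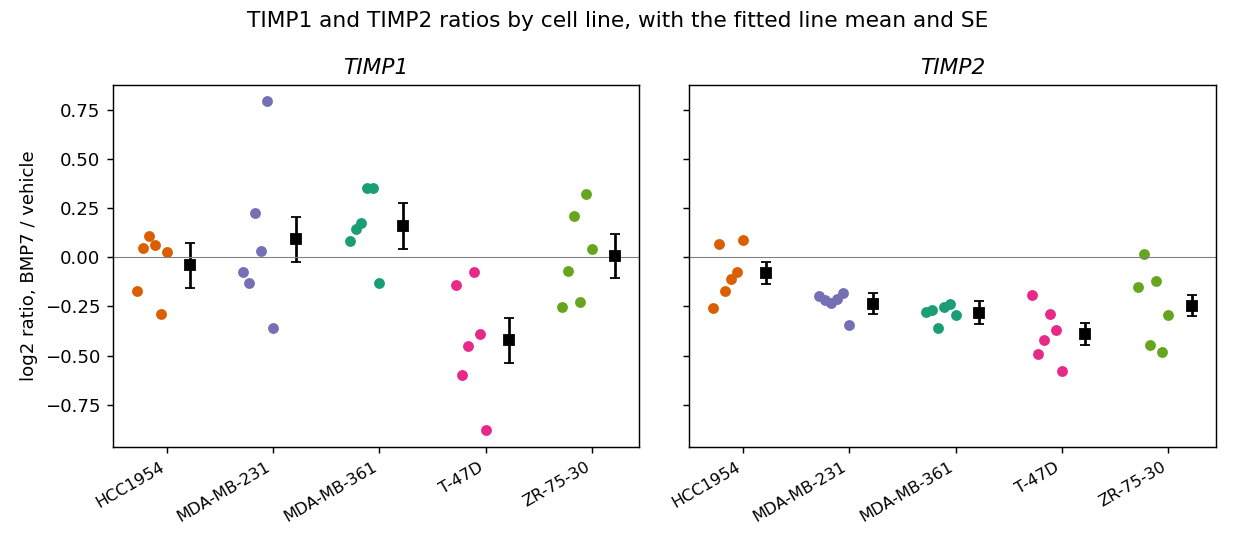
Log2 ratio of BMP7 over vehicle of TIMP1 and TIMP2 by cell line, with each array as a coloured point and the fitted line mean with its standard error as a black square. All 6 T-47D points of TIMP1 and all points of TIMP2 in MDA-MB-231, MDA-MB-361 and T-47D lie below 0.

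MMP14 was below 0 on 6 of 6 arrays in MDA-MB-231, from -0.71 to -0.02, with a mean of -0.46 ± 0.15 (SE, adjusted p = 0.0705), which was not called. In MDA-MB-361 MMP14 was also below 0 on 6 of 6 arrays, from -0.35 to -0.02. MMP1 in MDA-MB-231 lay at -0.04, 0.01, -0.26 and -0.11 from 30 min to 6 h, at -1.12 at 12 h and at 0.54 at 24 h, and its 10 spots at 12 h had an SD of 0.043. The ratio changed sign between the last 2 times, and no replicate shows how far these values would repeat. In HCC1954, MMP1 ran from -0.37 to 0.57. PLAU in HCC1954 was below 0 on 6 of 6 arrays, from -0.44 to -0.04, with a mean of -0.21 ± 0.08 (SE, adjusted p = 0.132). PLAUR in MDA-MB-361 had a mean of 0.52 ± 0.16 (SE, adjusted p = 0.0508), in a line where no vehicle sample was well above background. The PLAUR ratios in HCC1954, where it was highest, ran from -0.20 to -0.07.

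No member was called in the mean over the 5 lines (limma), where 0.00976% of probes were called. Unadjusted p was under 0.05 for 2 of 9, TIMP2 at -0.24 ± 0.05 (adjusted p = 0.131) and TIMP3 at 0.15 ± 0.05 (adjusted p = 0.298). The known BMP target genes read as checks were not called in this mean either. ID1 was at 0.81 (adjusted p = 0.127), ID2 at 0.91 (0.0993), ID3 at 0.63 (0.175), SMAD6 at 0.34 (0.350) and SMAD7 at 0.22 (0.0872). At 12 to 24 h against 30 min to 1 h, no member's ratio was called, where 0.507% of probes were, and 1 had an unadjusted p under 0.05 (PLAU, -0.17 ± 0.08, adjusted p = 0.249). In the same comparison ID1 rose by 0.91 ± 0.21 (SE, log2, adjusted p = 0.0466), ID2 by 0.91 ± 0.15 (0.0268), ID3 by 0.80 ± 0.15 (0.0322) and SMAD6 by 0.59 ± 0.10 (0.0298), known BMP target genes. SMAD7, the fifth target gene tested, was at 0.06 ± 0.11 (adjusted p = 0.824). These target genes were read in the reported fit alone, where 208 probes were called. Under the alternatives, 1 to 1073 probes were called in this comparison. The TIMP2 difference over time was -0.08 ± 0.06 (adjusted p = 0.510).

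In the vehicle channel, levels at 12 to 24 h against 30 min to 1 h gave no called member, where 0.0341% of probes were called, and 2 had an unadjusted p under 0.05. PLAU differed by -0.47 ± 0.13 (SE, log2, adjusted p = 0.357) and PLAUR by -0.45 ± 0.14 (adjusted p = 0.400). MMP1 in HCC1954 vehicle samples read -0.62, 0.47 and -1.18 at the 3 earliest times and -1.76, -2.59 and -2.50 at the 3 latest. Its difference over all lines was -0.53 ± 0.31 (adjusted p = 0.751), and in MDA-MB-231 MMP1 ran from -1.22 to 0.34.

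**Figure D5:**
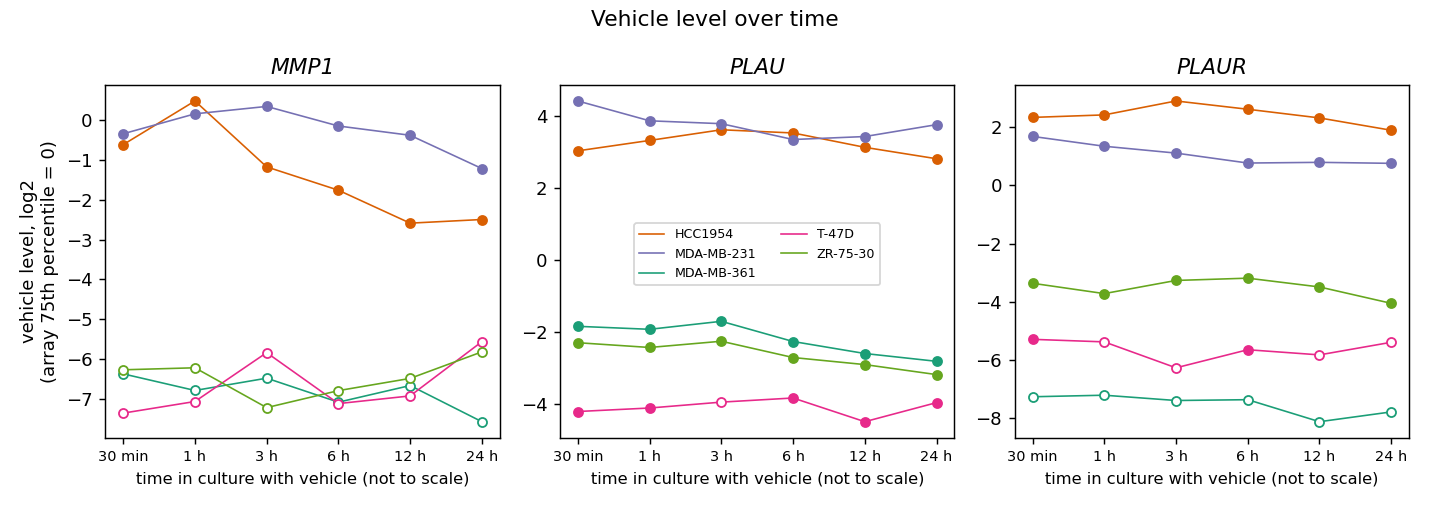
Vehicle level (log2, array 75th percentile = 0) of MMP1, PLAU and PLAUR over time in 5 cell lines, with open points where the signal was not well above background. MMP1 in HCC1954 goes from 0.47 at 1 h to -2.50 at 24 h, and PLAUR is higher in HCC1954 than in MDA-MB-231 at each time, with ZR-75-30 below both.

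A list of 57 further protease and inhibitor genes, of which 56 had a probe and 32 were well above background in at least 15 vehicle samples, was read in the same fits. Between lines, 313 of 560 vehicle comparisons (55.9%) were called, in 52 genes, against 42.7% over all probes. PLAT, the tissue plasminogen activator gene, was at 3.45 in MDA-MB-231 and 1.75 in HCC1954 and not well above background in the other lines, the same lines in which MMP1 was measured. SERPINB5 (maspin) was at 1.74 in HCC1954, ST14 (matriptase) was lowest in MDA-MB-231 at -3.61, and CST3 (cystatin C) was not well above background in HCC1954.

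With BMP7, 11 of 280 tests within a line (3.93%) were called, 3 higher and 8 lower, a share below the 5.44% of all such tests. ADAM10 rose by 0.40 ± 0.09 in HCC1954, where ADAM15 fell by 0.51 and MMP10, with both channels well above background on 4 of 6 arrays, rose by 0.29 ± 0.07. In MDA-MB-231, HPN had a mean ratio of 0.38 ± 0.10 with 3 of 6 arrays measured, while ADAM8 fell by 0.35 and CTSB fell by 0.19. ADAM8 fell by 0.35 and ADAM17 fell by 0.30 in MDA-MB-361, CSTB fell by 0.21 in T-47D, and CTSB fell by 0.23 in ZR-75-30, where the called ADAMTS9 was measured on 0 of 6 arrays. For these too, a constant dye effect cannot be told apart from the change. Between lines, 2 of 560 were called (0.357%, against 1.12% over all comparisons), ADAM10 and CTSB, and none over the 5 lines or late against early.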

How the data were processed

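BMP7-treated (Cy5) and vehicle-treated (Cy3) cells were compared on 30 Agilent arrays. Feature Extraction 9.5.1.1, per the file headers, produced the log10 ratios and the processed intensities (probe coordinates on hg18) with background correction and dye normalization. A matrix of log2 ratios that the authors made and deposited was used as an alternative. The p-values in the scanner files were not used.

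Log10 ratios were changed to log2, without outlier-marked and control spots, replicate spots were averaged, and the median of every array was set to 0. The vehicle level is log2 of the Cy3 processed intensity minus the array's 75th percentile. A gene was read from its probe with the highest mean vehicle level. Probes were fitted with limma 3.58.1 in R 4.3.3, with cell line as the group and slide as a random block (correlation 0.27 for vehicle levels and 0.07 for ratios, estimated on every 20th probe), or, for late against early, with cell line as a block. The mean over the 5 lines was tested on line means. p-values were Benjamini-Hochberg adjusted over all probes and comparisons of a kind, with a threshold of 0.05. The fits were tested on simulated data. Tables and plots used Python 3.11.15, numpy 2.4.6, pandas 2.3.3 and matplotlib 3.10.9. Precision is limited by the number of arrays, with 1 per line and time point.

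The members and lists were chosen with earlier results of these data known. Further genes were named from a list of 57 protease and inhibitor genes where called, up to 4 each way per comparison, and as the 3 closest by Pearson r for each member well above background on at least 15 arrays. Alternatives were normexp correction (offset 50) with loess, median or quantile scaling, the deposited matrix, no median shift, other scalings and filters, outlier spots kept, no slide block, time point or scan batch as a term, the first scan batch alone, and leaving out time points or lines. Leaving out single arrays was an alternative added after seeing the data.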

Additional observations from a re-analysis of the deposited data

Results flagged for a closer look

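Of 31 groups of 6 samples checked for an outlying sample, 3 were flagged, and chance flags about 1 in 20 groups. The TIMP1 vehicle level of MDA-MB-231 at 30 min, 2.18 on the log2 scale, lay above its 5 others, which ran from 1.38 to 1.63, and this sample is of the second scan batch. The TIMP2 vehicle level of HCC1954 at 1 h, 0.46, lay below its 5 others, from 1.91 to 2.36. The TIMP2 ratio of BMP7 over vehicle in MDA-MB-231 at 24 h, -0.34, lay below its 5 others, from -0.23 to -0.18. A difference between groups was flagged for the TIMP2 ratio, 0.31 higher in HCC1954 than in T-47D by the limma contrast between the lines.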

How the results depend on the processing

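The count of members called between lines in the vehicle level (61 of 90) stayed within 1.5 times under every alternative run, and no member was called over the 5 lines, late against early, or in the late vehicle level under any of them. Leaving out a time point gave 56 to 63 vehicle calls, 1 to 6 calls of a ratio within a line (5 in the reported fit; 1 without 24 h) and 0 to 2 of a ratio between lines (1 in the reported fit). Leaving out a cell line gave 0 calls in each of the 3 results it applies to. Calls of a ratio within a line numbered 0 with normexp and median scaling and 8 with time point as a term. Calls of a ratio between lines numbered 3 with normexp and loess and with time point as a term, 2 with both channels well above background and without the slide block, and 0 with normexp and median scaling, with the deposited matrix, and, chosen after seeing the data, without the ZR-75-30 array at 6 h, without the MDA-MB-231 array at 6 h, or without the T-47D arrays at 3 and 24 h. The TIMP2 ratio in MDA-MB-231 turned from -0.24 to 0.27 with normexp and median scaling, and the cause was not tested. For single genes, 1138 other values kept direction and call and 56 kept direction and lost the call. Averaging a gene's measured probes changed nothing, since the other TIMP2 probe was never well above background. Over all probes, the ratios called within a line numbered 11157, against 501 with normexp and median scaling and 18557 with time point as a term. Between lines they numbered 4582, against 0 and 15073. Late against early, 208 ratios were called over all probes. With normexp and median scaling this was 1, with scan batch as a term 4, and with both channels well above background 1073. Each ratio is already a paired comparison within an array, and the labels carry no replicate numbers to pair arrays by beyond the time point. Signal over background limits MMP2, and MMP1, TIMP3 and PLAUR in the lines where they were not measured.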
